A study of Homo sapiens with 2 samples.

Results

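The genes described here are 4 genes of actin monomer and filament turnover: Tmsb4x and Pfn1, which bind actin monomers, Cfl1, which severs filaments, and Actb, which encodes beta-actin itself. They were taken by symbol from a deposited RNA-seq count table of 3764 genes, and were chosen by their counts in the same 2 libraries that are compared below, as a named set whose levels were already known. The SCRN1 KO library came from HepG2, a line of human liver cancer cells, in which SCRN1 (secernin 1) was knocked out with CRISPR-Cas9. The vector library came from HepG2 cells whose genotype is labelled WT. Neither received a treatment, and both were grown in DMEM with fetal bovine serum. There was 1 library per group, and whether the knockout was a single clone or a pool of cells is not stated. No difference below therefore has a replicate check, and each 95% interval reflects the error of counting alone.

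The table held 163644 counts for the SCRN1 KO library and 178421 for the vector library, with a median of 11 counts per gene over both. All listed genes carry mouse Ensembl identifiers, mouse symbols and mouse positions, although the labels give the cells as human, and GRCh38 is the build in the submitters' processing notes. Scrn1 was not among the listed genes, so the knockout could not be checked in this table, and of 18 hepatocyte and HepG2 markers, Alb, Afp and Hnf4a among them, only the keratin gene Krt8 was listed, with 2 counts in the SCRN1 KO library and 0 in the vector library. The values below are counts assigned to mouse genes in libraries labelled as human cells.

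Actin in cells cycles between single molecules and filaments. Thymosin beta-4 holds monomers in reserve by keeping them from joining a filament, while profilin loads monomers with ATP and delivers them to growing filament ends. Cofilin binds older filament segments and severs them, which returns monomers to the pool. In liver-derived cells as elsewhere this cycle supplies the cell cortex, cell junctions and moving membrane edges.

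The set did not move as one. Tmsb4x was 147-fold higher and Pfn1 2.41-fold higher in the SCRN1 KO library, Cfl1 was 22.6-fold lower, and Actb could not be told apart from equality at its depth. By a rule that asks for at least 20 counts over both libraries, at least a 2-fold ratio and an interval that leaves out 1, 3 of the 4 genes were called, 2 higher and 1 lower. In the whole table the rule called 115 of 1588 compared genes (7.24%), 53 higher (3.34%) and 62 lower (3.90%). The authors' deposited table also calls these 3 genes at an adjusted p of at most 0.05, as it does 101 of its 3764 genes (2.68%). Since the counts of that same contrast were known when the genes were chosen, nothing is read from their share. The authors' p-values, here and below, are reproduced by an edgeR exact test with an assumed coefficient of variation of 0.1. They reflect no measured spread. Ratios are SCRN1 KO over vector after TMM scaling, which corrects for library size and composition. Over all 4 genes the SCRN1 KO library held 808 counts and the vector library 108, and without Tmsb4x these were 143 and 103.

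The coding sequences of human TMSB4X and its relative TMSB10 are shown first. They do not tell whether the counts of Tmsb4x could belong to another mouse gene, as no mouse sequence was read. They were read from GENCODE 29 transcripts, without the stop codon, 5′ to 3′, and capitals mark the bases that differ between the pair.
TMSB4X: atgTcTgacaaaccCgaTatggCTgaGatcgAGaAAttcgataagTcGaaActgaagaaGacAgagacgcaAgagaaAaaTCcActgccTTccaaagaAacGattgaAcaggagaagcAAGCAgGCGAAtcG
TMSB10: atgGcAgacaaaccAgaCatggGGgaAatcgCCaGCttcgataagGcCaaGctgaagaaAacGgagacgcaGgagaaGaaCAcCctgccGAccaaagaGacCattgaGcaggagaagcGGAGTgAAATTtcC
The coding sequences are 132 bases each and differ at 37 positions, and the longest stretch they share is 10 bases. On GRCh38, TMSB4X lies on the plus strand of chromosome X from 12975108 to 12977227 and TMSB10 on the plus strand of chromosome 2 from 84905625 to 84906675. TMSB4X also has copies of its own. All 83 windows of 50 bases in its coding sequence occur without a mismatch in the annotated transcripts of other human genes, and the 5 genes that hold them are TMSB4XP1, TMSB4XP2, TMSB4XP4, TMSB4XP6 and TMSB4XP8, pseudogenes of TMSB4X.

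Tmsb4x encodes thymosin beta-4, a small peptide that sequesters actin monomers. It had 665 counts in the SCRN1 KO library and 5 in the vector library, which is 4064 CPM (3761 to 4385) and 28.0 CPM (9.10 to 65.4), where CPM are counts scaled to the same total in each library. The ratio was 147 (62.8 to 455). In the SCRN1 KO library it ranked 35th of all listed genes by count and in the vector library 1938th, and it took 0.406% and 0.00280% of the counts. Among the 95 other genes whose summed count lies within 1.5-fold of that of Tmsb4x, 0 were called by the same rule and 0 were as far from equality. As the genes were chosen with these counts known, such placings, here and below, describe each gene and test nothing. In the authors' deposited table Tmsb4x has an adjusted p of 9.89e-67. On the mouse coordinates of the table it lies on chromosome X from 167207093 to 167209315, and no other listed gene overlaps it or lies within 100000 bases.

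Its closest relative, Tmsb10, encodes thymosin beta-10 and also binds actin monomers. It had 2 counts in the SCRN1 KO library and 1 in the vector library, a ratio of 2.21 (0.115 to 130.6), too few counts to tell a difference at this depth. The compared genes nearest to Tmsb4x in log2 ratio were Uba1, the ubiquitin activating enzyme gene, with 60 counts in the SCRN1 KO library and 0 in the vector library, and Ccnc, the cyclin C gene, with 43 and 0 counts in that order of libraries. Both have their log2 ratio set by the 0.5 added to each count, and likeness here is measured over 2 libraries only.

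**Figure D1:**
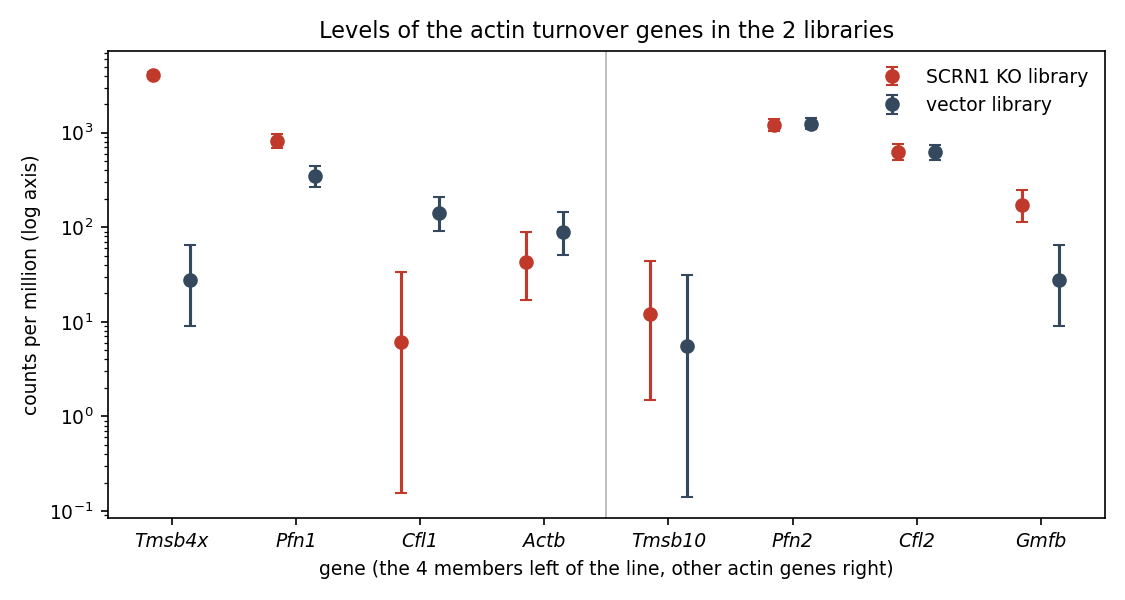
CPM on a log axis in the SCRN1 KO library (left point of each pair) and the vector library (right point), 1 library each, with 95% exact Poisson intervals for counting error. The points of Tmsb4x lie at 4064 and 28.0 and those of Cfl1 at 6.11 and 140.1, while Pfn2 and Cfl2 lie at nearly the same height in both libraries.

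Pfn1 encodes profilin 1, the main profilin of most tissues. It had 135 counts in the SCRN1 KO library and 62 in the vector library, or 825 CPM (692 to 976) and 347 CPM (266 to 445). The intervals of the 2 libraries do not overlap, and the ratio was 2.41 (1.77 to 3.31). Of 260 other genes with a summed count within 1.5-fold of that of Pfn1, 9 were called and 5 were at least as far from equality. The authors' deposited table gives Pfn1 an adjusted p of 0.00193. Pfn2, which encodes the second profilin and is best known from brain, had 199 counts in the SCRN1 KO library and 223 in the vector library. Its ratio was 0.988 (0.812 to 1.20), an interval that lies wholly below that of Pfn1. Zbtb26, a zinc finger gene with 174 and 80 counts in the SCRN1 KO and vector libraries, and Gm44597, a processed transcript with 27 and 12, were nearest to Pfn1 in log2 ratio.

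Pfn1 is also the only one of the 4 genes for which the table lists a processed pseudogene by name or description. This copy, AC124336.1, had 1 count in each library, and pooling it with Pfn1 gave a ratio of 2.39 (1.76 to 3.27). Of the 683 processed pseudogenes in the table, 555 have a description that names no parent gene, so further copies of any of the 4 genes may be listed without being recognised. Pfn1 lies on mouse chromosome 11 from 70651850 to 70654644 and overlaps no listed gene. Its listed neighbours within 100000 bases were Camta2 with 3 counts in the SCRN1 KO library and 8 in the vector library, Kif1c with 1 and 4, and Pld2 with 2 and 2, so these neighbours held few counts in either library.

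Cfl1 encodes cofilin 1, the non-muscle cofilin. It had 1 count in the SCRN1 KO library and 25 in the vector library, or 6.11 CPM (0.155 to 34.0) and 140.1 CPM (90.7 to 206.8). The ratio was 0.0443 (0.00108 to 0.270), that is, 22.6-fold lower in the SCRN1 KO library with an interval from 3.70 to 927. The width of that interval comes from the single count. Of 481 other genes with a summed count within 1.5-fold of that of Cfl1, 20 were at least as far from equality and 55 were called. The authors' deposited table gives an adjusted p of 0.000464. Cfl1 lies on mouse chromosome 19 from 5490455 to 5495201, with no overlapping listed gene and none within 100000 bases. The compared genes nearest to it in log2 ratio were Clint1, the clathrin interactor 1 gene, with 1 count in the SCRN1 KO library and 26 in the vector library, and Spp1, the osteopontin gene, with 2 and 35.

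Of the markers of other cell types, Lyz2 and Twist2 were also called lower in the SCRN1 KO library. Of 11 leukocyte markers 2 were listed, the lysozyme gene Lyz2 with 3 counts in the SCRN1 KO library and 21 in the vector library and Laptm5 with 0 and 4, which sum to 3 and 25. Defining leukocyte genes such as Ptprc and Cd68 were not among the listed genes. Of 9 fibroblast markers 3 were listed, summing to 23 and 51 counts: Col1a1 had 4 and 6, Twist2 had 4 and 33, and Vim had 15 and 12. None of the 5 endothelial markers was listed. Of the 4 genes described here only Cfl1 was called lower as these 2 markers were, while Tmsb4x and Pfn1 were called higher. The part of such RNA in the results for any of the 4 was not tested. In bulk RNA fewer cells of a type and less RNA per cell cannot be told apart.

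Cfl2, the muscle-type cofilin gene that other tissues also transcribe, was close to even. It had 102 counts in the SCRN1 KO library and 111 in the vector library, a ratio of 1.02 (0.770 to 1.34), and this interval lies wholly above that of Cfl1. With over 4 times the counts of Cfl1 in the vector library, Cfl2 was the better measured of the cofilins. Dstn, the gene of the related factor destrin, was not listed.

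Actb encodes beta-actin, the building block that the other 3 proteins act on. It had 7 counts in the SCRN1 KO library and 16 in the vector library, or 42.8 CPM (17.2 to 88.1) and 89.7 CPM (51.3 to 145.6). Its ratio of 0.484 (0.168 to 1.24) did not exclude equality, and the interval allows anything from a 5.94-fold lower to a 1.24-fold higher level. Of 464 other genes with a summed count within 1.5-fold of that of Actb, 108 were at least as far from equality. The authors' deposited table gives Actb an adjusted p of 0.926. The nearest genes in log2 ratio were Gm6823, a processed pseudogene with the same counts of 7 and 16, and Ythdc2, with 16 in the SCRN1 KO library and 36 in the vector library. Actb lies on mouse chromosome 5 from 142903115 to 142906754, overlaps no listed gene and has Tnrc18, with 20 and 21 counts, as its only listed neighbour within 100000 bases.

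Of the 6 other actin genes looked for, only those of the sarcomeric alpha-actins Acta1 and Actc1 were listed. Acta1 had 3 counts in each library, and Actc1 had 5 in the SCRN1 KO library and 0 in the vector library. The gamma-actin gene Actg1 was not listed, while its processed pseudogene Actg-ps1 had 0 and 2 counts. Beta-actin is among the most abundant transcripts of most cultured cells, and here it held 0.00428% of the counts in the SCRN1 KO library and 0.00897% in the vector library.

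**Figure D2:**
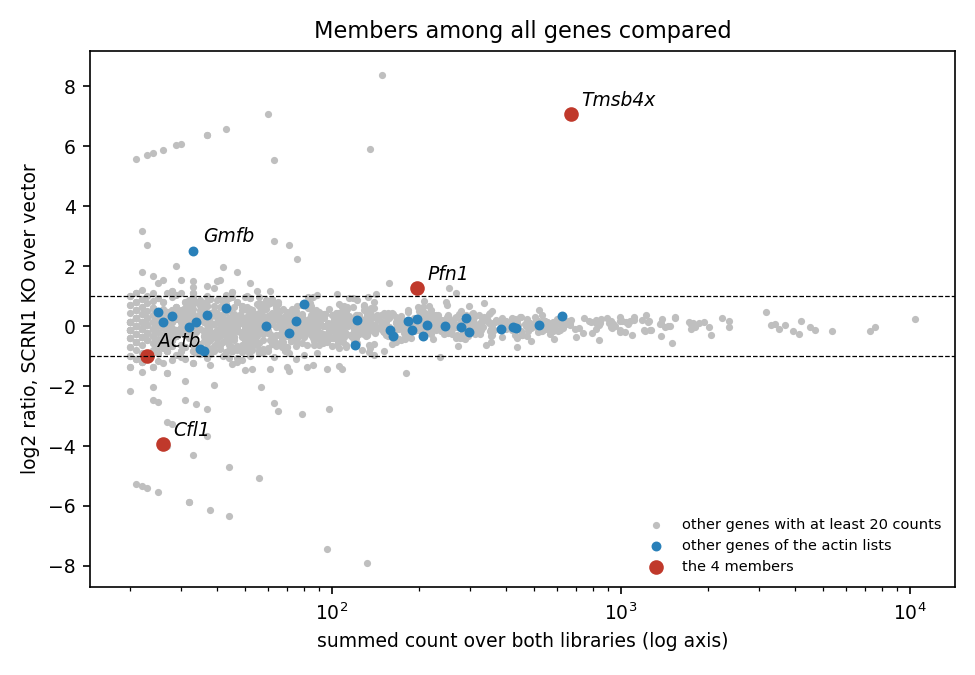
Log2 ratio of SCRN1 KO over vector (vertical axis) against the summed count over both libraries (log axis) for the 1588 genes with at least 20 counts, with 0.5 added to each count and dashed lines at 2-fold. Tmsb4x stands at a log2 ratio of 7.07 with 670 counts, Pfn1 at 1.26 with 197, Cfl1 at -3.94 with 26 and Actb at -0.99 with 23, where the grey points are widely spread.

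Levels of the 4 genes were put in order per length with the deposited FPKM values, whose intervals here again cover counting error only. In the SCRN1 KO library the order was Tmsb4x at 1928 FPKM, Pfn1 at 196, Actb at 7.22 and Cfl1 at 1.95, and the intervals of Actb and Cfl1 overlap. The vector library had Pfn1 first at 82.6 FPKM (63.3 to 105.9), then Cfl1 at 44.8 (28.97 to 66.1), Actb at 15.1 (8.65 to 24.6) and Tmsb4x at 13.3 (4.32 to 31.0), and in that order Pfn1 and Cfl1, Cfl1 and Tmsb4x, and Actb and Tmsb4x had overlapping intervals. By these deposited values Tmsb4x was the highest of the 4 in the SCRN1 KO library and had the lowest point value in the vector library. The gene length implied by the deposited FPKM was 4190 bases for Pfn1, whose listed locus spans 2795, and 5902 bases for Actb, whose locus spans 3640. The FPKM of both is therefore too low, by at least 1.499 and 1.62 times. The same was found for 247 of the 3764 genes (6.56%), with a tolerance of 1%. It does not touch the ratios between libraries, but the order of the 4 genes within a library depends on these lengths. That order also rests on counts assigned to mouse genes in libraries labelled as human cells. How far this assignment differs from gene to gene was not tested, so the order is one of deposited values only. For Tmsb4x and Cfl1 the implied length lay within the locus, at 2100 of 2223 and 3117 of 4747 bases. That does not show their lengths to be right.

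The 4 genes differ in how repeated they are in the human genome. GENCODE 29 names 6 copies of TMSB4X, 10 of PFN1, 8 of CFL1 and 10 of ACTB by symbol, and 5, 10, 7 and 9 of these are processed pseudogenes. The share of 50-base windows of the coding sequence that also occur in transcripts of other genes was 83 of 83 windows for TMSB4X, 29.4% for PFN1 (109 of 371 windows), 17.8% for ACTB (192 of 1076) and 1.56% for CFL1 (7 of 449). PFN1 shared its windows with PFN1P1 alone, CFL1 with CFL1P2 and CFL1P4, and ACTB with 17 genes that include ACTG1 and ACTA1. How the authors counted reads that fit several places is not stated, and no mouse sequence was read, which leaves the values of all 4 genes uncertain. The human shares do not tell which of the 4 mouse genes this touches most. The human loci on GRCh38 are chromosome 17 from 4945652 to 4949061 for PFN1, chromosome 11 from 65823022 to 65862026 for CFL1 and chromosome 7 from 5527147 to 5563784 for ACTB, all on the minus strand and all annotated as protein-coding.

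The rest of the actin machinery was read from 11 lists by role, with 176 symbols, of which 65 were listed in the table and 36 had at least 20 counts. Leaving out the 4 genes, 32 others were compared and 1 of them was called (3.12%, against 7.24% of all compared genes). Of these 32, 26 lay within 1.5-fold of equality, and of all 1588 compared genes 1204 did (75.8%). The median log2 ratio of the 32 was 0.01, against 0.03 over all compared genes. The deposited annotation marks 66 listed genes as part of the KEGG pathway for regulation of the actin cytoskeleton, a list taken up after the data were seen. Without the 4 genes, 36 of its genes were compared, 0 were called and their ratios ran from 0.553 to 1.72.

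The 1 other called gene was Gmfb, which encodes glia maturation factor beta. This protein is of the same fold family as cofilin and is known to take Arp2/3 complex off filament branches. Gmfb had 28 counts in the SCRN1 KO library and 5 in the vector library, a ratio of 6.20 (2.36 to 20.6). Of the 3 compared severing and disassembly factors, Gmfb was therefore higher, Cfl1 lower and Cfl2 near equality. Of the 3 compared monomer binders, Tmsb4x and Pfn1 were higher and Pfn2 was near equality. In the cofilin kinase and phosphatase list, Rock1 had 15 counts in the SCRN1 KO library and 17 in the vector library, and Rock2, its close relative, had 12 and 24, a ratio of 0.553 (0.252 to 1.15). Limk1, Limk2 and Ssh1, which set cofilin phosphorylation directly, were not listed. Ssh2, a relative of Ssh1, was listed with 4 counts in the SCRN1 KO library and 3 in the vector library, too few to be compared.

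None of the compared filament nucleation genes was called, where 7.24% of all compared genes were. At that share, lists as short as these hold few or no calls. For the Arp2/3 complex, which starts branched filaments, Arpc2 had 117 counts in the SCRN1 KO library and 130 in the vector library, Actr2 had 86 and 104 and Actr3b had 14 and 11, and 0 of 3 were called. Of 7 activators of that complex 0 were called and 5 lay within 1.5-fold of equality. The other 2 have intervals that leave out equality, but their ratios fall short of 2-fold. Brk1, a small WAVE complex subunit, had 44 counts in the SCRN1 KO library and 76 in the vector library, a ratio of 0.641 (0.432 to 0.941). Abi2, also of that complex, had 48 and 32, a ratio of 1.66 (1.04 to 2.68), and with median-of-ratios scaling its interval of 0.939 to 2.42 holds equality. Wasf2, a subunit of the WAVE complex, had 131 counts in the SCRN1 KO library and 149 in the vector library, Cyfip1 had 68 and 95, and Wasl, the gene of N-WASP, had 62 and 60. The interval of Cyfip1 held equality after TMM scaling (0.572 to 1.09) but not with median-of-ratios scaling (0.516 to 0.988). Diaph1, a formin that elongates unbranched filaments, had 38 and 37.

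In the list for filament end capping 0 of 4 compared genes were called, and in that for cross-linkers and tropomyosins 0 of 5. With 7.24% called among all compared genes, few or no calls are the usual outcome for lists this short. In each list 4 lay within 1.5-fold of equality. The lists also hold genes whose proteins bind filaments without capping or cross-linking them, such as Enah and Msn. The exception was Actn4, an alpha-actinin gene, with 12 counts in the SCRN1 KO library and 23 in the vector library, a ratio of 0.577 (0.262 to 1.21). Capza2, a capping protein subunit, had 132 counts in the SCRN1 KO library and 167 in the vector library, Enah had 102 and 95, and Add1 had 31 and 40. Tpm1, a tropomyosin, had 200 and 233, Msn, the gene of moesin, had 153 and 139, and Actn1, the gene of an alpha-actinin, had 87 and 120. With median-of-ratios scaling the intervals of Capza2 (0.624 to 0.999) and Actn1 (0.544 to 0.963) left out equality, which they held after TMM scaling. Neither ratio reached 2-fold.

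Free actin monomers also hold back the coactivators of SRF, a transcription factor that drives actin and other cytoskeletal genes. Srf had 93 counts in the SCRN1 KO library and 91 in the vector library, a ratio of 1.13. Vcl, a focal adhesion gene and known SRF target, had 334 and 290, with a ratio of 1.27 (1.09 to 1.497) that leaves out equality but does not reach 2-fold. With median-of-ratios scaling, which shifts every log2 ratio by -0.15, its interval of 0.981 to 1.35 holds equality. Cyr61 had 17 counts in each library. None of the 3 was called, where 7.24% of all compared genes were. The coactivator genes Mrtfa and Mrtfb were not listed, under their older symbols Mkl1 and Mkl2 either.

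**Figure D3:**
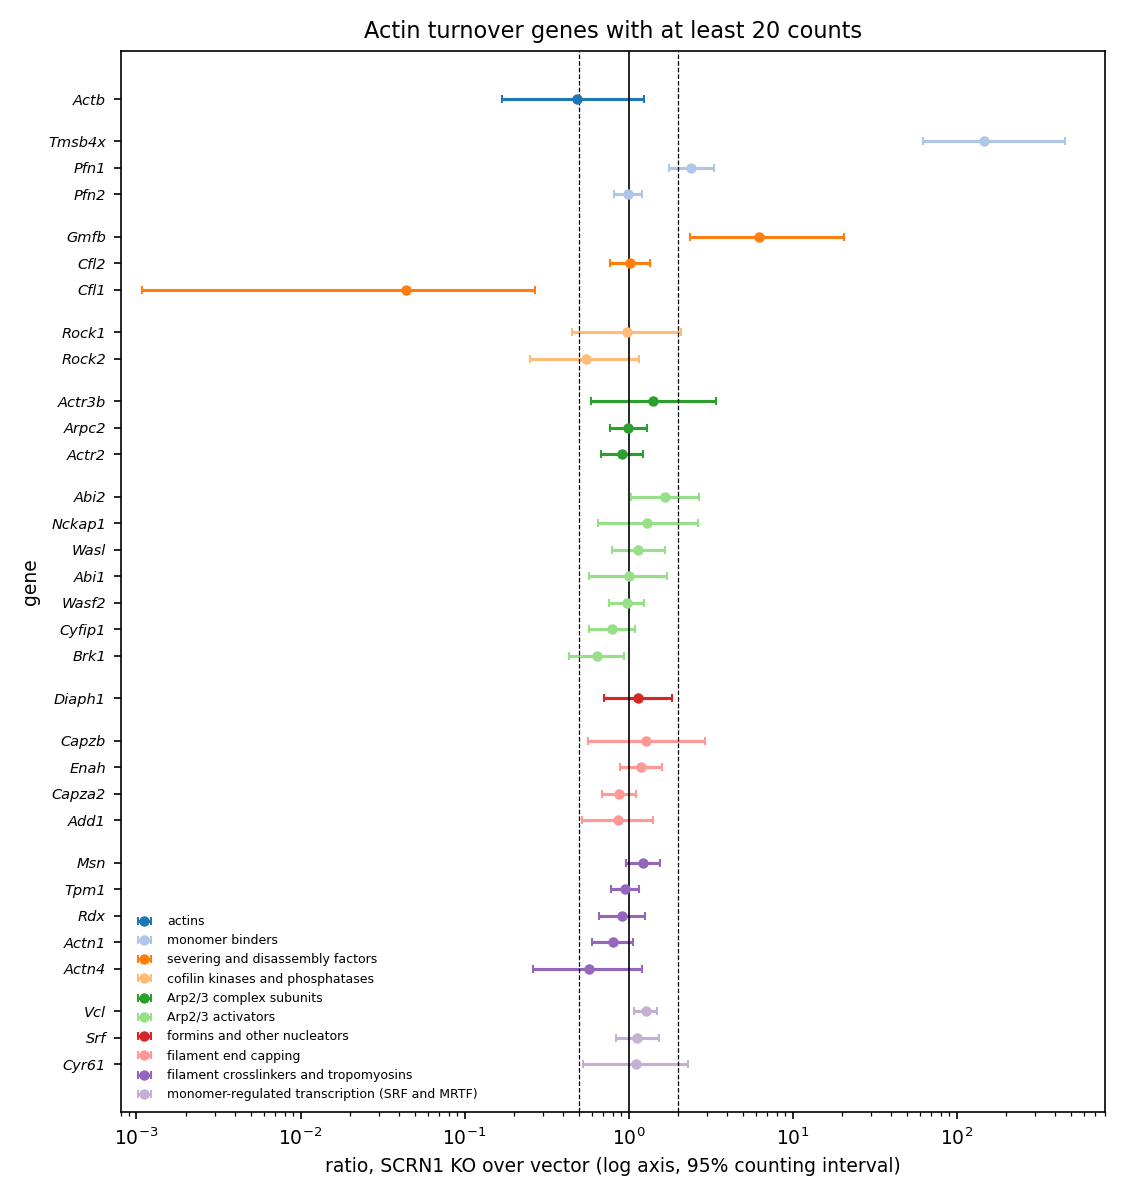
Ratio of SCRN1 KO over vector on a log axis, with 95% counting intervals, for 32 genes with at least 20 counts from 10 of the 11 actin lists, coloured by list, with a line at equality and dashed lines at 2-fold. Only Tmsb4x, Pfn1, Gmfb and Cfl1 lie beyond the dashed lines with intervals clear of equality, while Actb lies just beyond 2-fold with an interval that crosses it.

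Many genes of the actin lists were too sparsely counted to be compared, and some had counts in 1 library alone. In the 65 genes listed, 8 lacked any count in the SCRN1 KO library (12.3%) and 2 were without one in the vector library (3.08%), where the whole table has 478 (12.7%) and 220 (5.84%). The 8 were Cap1, Mtss1, Coro1c, Nckap1l, Inf2, Spire1, Vasp and Pls3, with at most 7 counts each in the vector library. Spire1, the gene of an actin nucleator, had the 7. The other 2 were Actc1, with 5 counts in the SCRN1 KO library, and Washc4, a subunit gene of the WASH complex that activates Arp2/3 on endosomes, with 15. The count of Washc4 lies under the minimum of 20, and its ratio has an interval that starts at 3.97.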

How the data were processed

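RNA from 1 SCRN1 KO and 1 vector library of HepG2 cells was sequenced. Per the labels' protocols, total RNA was cleaned, treated with DNase and separated to mRNA. Per the submitters' processing notes, GRCh38, StringTie 1.3.0, HISAT2 2.0.4 and bcl2fastq 2.19 were used, while the deposited table lists mouse genes. Strand setting, counting tool and mouse build are not stated. In that table the authors deposited raw counts, FPKM values per length and library size, log2 fold changes of vector over knockout, and p-values. An exact test in edgeR with a coefficient of variation set to 0.1 gave the deposited p-values to within 5.22e-15, and that spread was not measured.

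TMM factors from edgeR 4.0.16 (R 4.3.3) scaled the counts, and each ratio has a 95% Clopper-Pearson interval. The quasi-likelihood test could not be run with 1 library per group. With 3 counts as a one-sided floor, a gene at 0 may have up to 18.3 CPM in the SCRN1 KO library and 16.8 CPM in the vector library. Reads are not independent molecules, so intervals cover counting error only. The rule was tested on simulated data. Changes were planted there only in genes with more counts than Cfl1 and Actb, so finding a change at their depth was not checked. The genes, lists and rules were chosen with earlier results of these data known. The text names the 4 genes and their closest relatives, and in each list but 1, which is not reported here, the called genes and the 3 compared genes with the most counts. It also names for each of the 4 the 2 compared genes nearest in log2 ratio. Actc1, Acta1, Actg-ps1, Brk1, Abi2, Actn4, Ssh2, the neighbouring genes, the marker genes and the genes without counts in 1 library were named after their values were seen. Implied lengths used FPKM-implied totals of 164271 and 179141 for the SCRN1 KO and vector libraries, from single-exon pseudogenes. Alternatives covered scaling (DESeq2 1.42.0 among them), filter, fold and copies. Python 3.11.15, SciPy 1.17.1 and matplotlib 3.10.9 were used.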

Additional observations from a re-analysis of the deposited data

How the results depend on the processing

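The ratios of the 4 genes kept their direction and their call with library totals, median-of-ratios, upper-quartile and FPKM-implied scaling, the last chosen after seeing the data. Tmsb4x ran from 133 to 148, Pfn1 from 2.18 to 2.43, Cfl1 from 0.0400 to 0.0446 and Actb from 0.438 to 0.488. Median-of-ratios scaling called 42 genes of the table higher and 89 lower, against 53 and 62. The table gave 188 calls with at least 10 counts, 295 with no count filter and 181 at 1.5-fold, against 115, since each of these admits more genes. The actin lists gave 7 calls with no count filter, against 4, the added ones being Washc4, Spire1 and Actc1, and 6 at 1.5-fold, with Brk1 and Abi2 added. No listed pseudogene could be tied to Tmsb4x, Cfl1 or Actb, so pooling with copies was run for Pfn1 alone. No paired analysis was possible because each group has 1 library. At 26 and 23 summed counts, depth limits Cfl1 and Actb most.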
